A study of Rattus norvegicus with 24 samples.

Results

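Positional transcription factors are DNA-binding proteins that record where along the body a cell arose. The 67 targets described here are those of 19962 measured targets whose symbols fall into 5 families: 39 Hox, 13 Tbx, 8 Lhx, 5 Zic and 2 Prrx targets. They were chosen by name alone. All 67 symbols equal a gene symbol of the rat annotation GRCr8, as do 16665 of the 19962 targets. A shared symbol does not show that a probe binds the rat RNA. The 67 targets were measured by GeoMx spatial profiling. In it a panel of indexed probes is hybridised to a fixed, paraffin-embedded section, light releases the tags of a chosen area, and the tags are sequenced. There were 24 areas of wounded skin: each of 3 treatments had 2 specimens, each specimen 2 regions, and each region 2 segments.

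All animals were male rats labelled SD, made diabetic with STZ (streptozotocin) at 5 weeks of age, with full-thickness skin defects of 8 mm that were splinted or sutured against contraction and collected at day 7. The CuNZ@Gel wounds received a hydrogel that the series title calls a nanozyme hydrogel, the Gel wounds received a hydrogel, and the labels do not say what the Sham wounds received or what either gel contained. Every group was diabetic and wounded, and no unwounded or non-diabetic skin was among the samples. Whether each numbered specimen was 1 animal is not in the labels, nor what separates Segment 1 from Segment 2, or which stains defined an area. The p-values therefore rest on the spread between these specimens, pooled largely over all targets tested. That spread may be technical, and the p-values may be too small if specimens share an animal.

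Hox genes encode homeodomain proteins and lie in 4 clusters, Hoxa to Hoxd. In vertebrates the genes near one end of a cluster act towards the head and those near the other end towards the tail and the limb tips, and same-numbered genes of different clusters form a paralogue group. Skin fibroblasts of adult mammals keep a Hox pattern that depends on body site. Zic genes encode zinc finger proteins related to the Gli factors, Lhx genes encode LIM-homeodomain proteins that bind DNA with Ldb partners, Tbx genes encode T-box proteins, and Prrx1 and Prrx2 encode paired-related homeodomain proteins of limb, face and skin mesenchyme.

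Values are deposited scaled signal, with recovered totals of 86386 to 1476512 counts per area (median 340373.5). Segment 2 areas were the shallower ones in 11 of 12 regions, with a median of 170042 counts against 533137 in Segment 1 areas. A member was called above background in an area when it exceeded the 99th percentile of that area's 1116 receptor targets for odours and pheromones (Olfr, Vmn1r and Vmn2r), which lay between 11.4 and 21.6 (median 14.3) and equalled 5.0 to 51.9 recovered counts. Of marker lists for skin cells, 8 of 12 fibroblast and 6 of 10 macrophage and myeloid markers were above background in at least 4 areas, while 0 of 10 keratinocyte and hair follicle markers were, Krt5 and Krt14 included. Probes differ in efficiency, so neither the levels of members nor their numbers of areas above background rank their RNA against each other. A target below background may lack RNA or lack a probe that binds well, which was not tested. A difference in level cannot tell fewer cells of a type from less RNA per cell.

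Of the 67 members, 20 (29.85%) exceeded background in at least 4 of the 24 areas, against 29.37% of the 18779 other non-receptor targets and 1.7% of the receptor targets. Prrx1 was the one member above background in all 24 areas. Next came Hoxd8 in 23 areas, Hoxc6 in 22, Hoxd9 in 18, Hoxb6 and Hoxc8 in 17 each, Hoxc5 in 16, Prrx2 in 15, Hoxb4 in 14 and Hoxc4 in 13. The others that met the limit were Zic1 in 11 areas, Tbx15 in 9, Hoxb5, Lhx8 and Tbx18 in 7 each, Lhx6 in 6, Hoxb3 in 5, and Hoxa7, Hoxc9 and Hoxd4 in 4 each. Just outside it lay Hoxa10, Hoxb7, Hoxc11 and Tbx3 with 2 areas each and Hoxb2 and Hoxc10 with 1 area each. The remaining 41 members (61.19%, against 62.49% of the other targets) exceeded background in 0 areas, and their median signal was between 0.153 times (Tbx22) and 0.628 times (Hoxa3) the background of the area. Among these 41 were Zic2 to Zic5, Lhx1 to Lhx5 and Lhx9, and the limb factors Tbx4 and Tbx5. The counting rule sets the number: 30 members met it with the 95th percentile of the receptor targets and 13 with a percentile above the 99th, and 13 met it with counts thinned to the depth of the shallowest area.

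**Figure D1:**
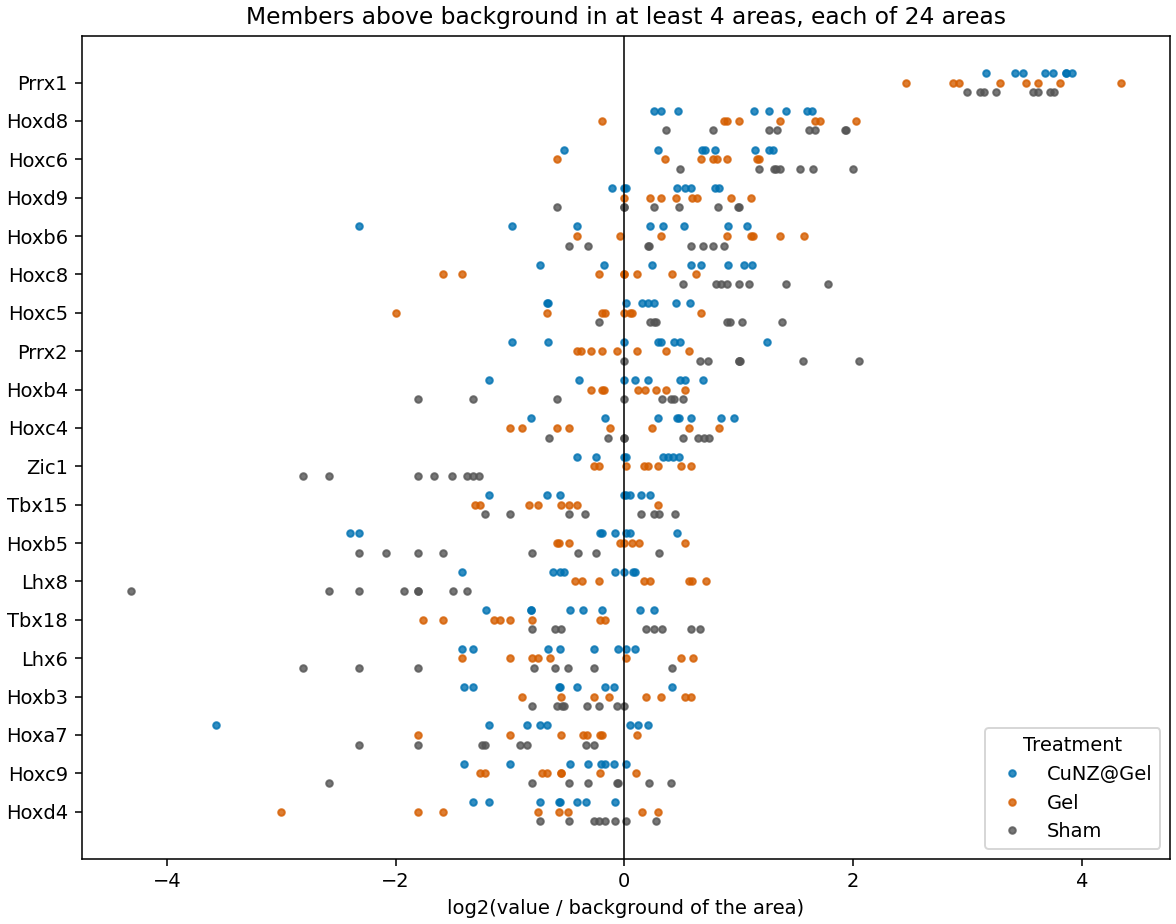
Log2 of each value over the background of its area, for the 20 members above background in at least 4 areas, with 1 point per area (24 per member) coloured by treatment. Prrx1 lay above the background line in 24 of 24 areas, whereas the 8 Sham areas of Zic1 and of Lhx8 all lay below it.

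Within the Hox clusters, the members above background were from the middle of the numbering. Of the measured genes of paralogue groups 3 to 9, 13 of 22 exceeded background in at least 4 areas, against 0 of 5 in groups 1 and 2 and 0 of 12 in groups 10 to 13, a grouping made after the values were seen. By cluster the counts were 5 of 9 for Hoxc (Hoxc4, Hoxc5, Hoxc6, Hoxc8 and Hoxc9), 4 of 10 for Hoxb (Hoxb3 to Hoxb6), 3 of 9 for Hoxd (Hoxd4, Hoxd8 and Hoxd9) and 1 of 11 for Hoxa (Hoxa7). The part of probe efficiency in these counts was not tested. In mammals genes of these middle groups pattern the neck and trunk, and those of the last groups act in the lower trunk and the outer limb. In the annotation the spans of Hoxc6, Hoxc4 and Hoxc5 overlap, as do those of Hoxa3 with Hoxa4, Hoxa5 and Hoxa6, and those of Zic1 with Zic4, and the probe sequences were not used here.

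**Figure D2:**
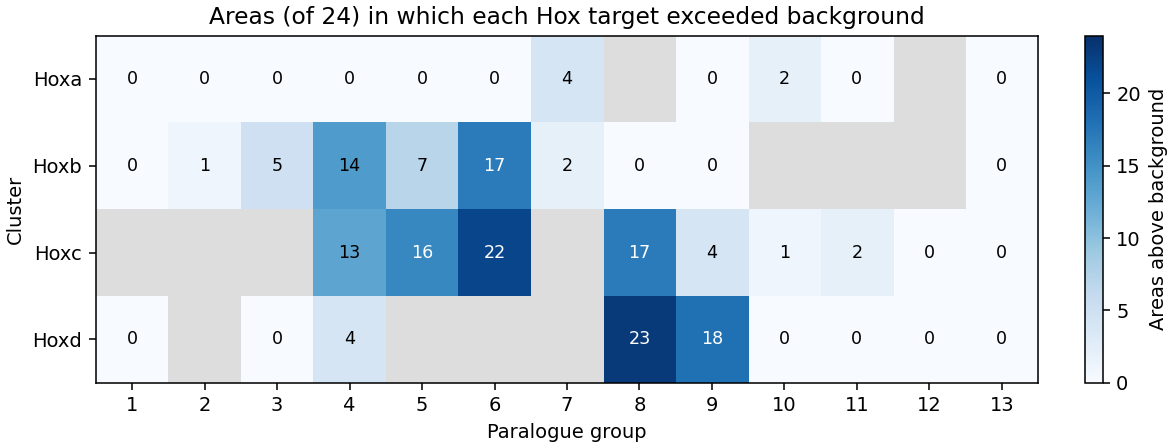
Number of areas, of 24, in which each measured Hox target exceeded the background of the area, by cluster (down the page) and paralogue group (across), with grey where no target of that name was measured. Hoxd8 reached 23 areas and Hoxc6 22, while no member of groups 10 to 13 reached more than 2.

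Treatments were compared with limma on specimen means of log2(value + 1), so changes are on that scale, and adjusted p-values are Benjamini-Hochberg over the 19728 targets tested. Between Gel and Sham 5 of the 67 members (7.46%) passed an adjusted p of 0.05, where 2.42% of all targets tested did. Zic1, Lhx8 and Hoxb5 were higher in Gel (0.618% of all targets were called higher) and Hoxc8 and Prrx2 were lower (1.8% were called lower). Between CuNZ@Gel and Sham 2 members (2.99%) passed, Zic1 and Lhx8, both higher, where 1.31% of all targets did (0.324% higher and 0.988% lower). Both comparisons use the same Sham specimens. Between CuNZ@Gel and Gel 0 members passed, where 0.943% of all targets did (0.623% higher and 0.319% lower), and 0 passed by edgeR or DESeq2. The median change of targets above background was -0.16 for CuNZ@Gel against Sham and -0.15 for Gel against Sham. It was -0.02 and 0.01 in that order after quantile normalization, and -0.23 and -0.29 after scaling to the median.

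Zic1, which in mice acts in the cerebellum and the dorsal parts of the somites, stood apart between gel-treated and Sham wounds. Its signal ran from 10.5 to 21.8 in CuNZ@Gel areas (median 16.3), from 12.3 to 21.1 in Gel areas (median 15.3) and from 2.04 to 6.13 in Sham areas (median 4.57). The lowest area of either gel lay above the highest Sham area, and 5 of 8 CuNZ@Gel, 6 of 8 Gel and 0 of 8 Sham areas exceeded background. Specimen means were 14.6 and 17.9 in CuNZ@Gel, 16.3 and 16.2 in Gel, and 4.49 and 3.96 in Sham. The log2 change was 1.75 (SE 0.26, adjusted p = 5.85e-07) for CuNZ@Gel against Sham and 1.75 (SE 0.26, adjusted p = 1.81e-07) for Gel against Sham. Since the Sham level lay below background, it may be partly or wholly probe background, and the size of the change depends on it. With thinned counts the changes were 2.81 for CuNZ@Gel against Sham and 2.25 for Gel against Sham. The 2 gels did not differ past the threshold (log2 change 0.00 for CuNZ@Gel against Gel, SE 0.26, adjusted p = 0.999). Both calls against Sham held under 21 of 21 alternatives.

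Lhx8, which in mice is needed for cholinergic neurons of the basal forebrain and for tooth and oocyte development, was also higher in both gels than in Sham. It ran from 5.26 to 15.3 in CuNZ@Gel areas (median 13.1), from 8.46 to 22.1 in Gel areas (median 18.7) and from 0.721 to 4.81 in Sham areas (median 3.85). No gel-treated area overlapped a Sham area, although only 2 of 8 CuNZ@Gel and 5 of 8 Gel areas exceeded background, and 0 of 8 Sham areas did. Specimen means were 11.8 and 11.9 in CuNZ@Gel, 18.2 and 15.3 in Gel, and 2.46 and 4.30 in Sham. The log2 change was 1.57 for CuNZ@Gel against Sham (SE 0.28, adjusted p = 4.93e-05) and 2.04 for Gel against Sham (SE 0.28, adjusted p = 7.43e-09), again against a Sham level below background. The Gel call held under 21 of 21 alternatives, and the CuNZ@Gel call was lost with thinned counts (log2 change 1.82, adjusted p = 0.106) and in Segment 2 areas alone (1.44, adjusted p = 0.158). The gels themselves differed by -0.47 for CuNZ@Gel against Gel (SE 0.28, adjusted p = 0.859).

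Across the 24 areas the log2 values of Lhx8 and Zic1 had a Pearson correlation of 0.835, and of 0.833 over the 12 Segment 1 areas. The areas share treatments, specimens and depth, so this is a description. The targets most like Zic1 among 5534 others above background were Ebi3, a subunit of interleukins 27 and 35 (r = 0.950), Ifi27l2a, an interferon-induced gene (0.865), C3, the central complement protein (0.856), and Rasa4 (0.834). Those most like Lhx8 were C3 (0.911), Ebi3 (0.881), Mt2, a metallothionein (0.822), Ifi27l2a (0.808) and Cfb, complement factor B (0.783). Each of these 6 targets was called higher in Gel and in CuNZ@Gel than in Sham. They were picked for likeness to Zic1 or Lhx8 over the same areas, which makes such calls likely, so the calls are no separate result.

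Zic1 and Lhx8 also mark the precursors of classical brown fat in mice, so the measured genes of that tissue were set beside them, in a list chosen after the values were seen. Of 13 such targets, 11 exceeded background in 0 areas, as did 62.49% of the other non-receptor targets. Among the 11 were Ucp1, the uncoupling protein of brown fat (highest value 5.37 in CuNZ@Gel, 7.50 in Gel and 4.09 in Sham), Cidea, Prdm16, Adipoq and Pparg. Dio2 exceeded it in 11 areas and Fabp4 in 24. The summed adipocyte markers, of which Fabp4 alone among 8 was above background, ran from 80.6 to 246 in CuNZ@Gel areas, from 71.5 to 764 in Gel areas and from 61.3 to 126 in Sham areas. Over the 24 areas the log2 value of that sum correlated with Lhx8 at r = 0.57 and with Zic1 at 0.525. The part of adipocytes in the Zic1 and Lhx8 differences was not tested.

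Hoxc8, which in mice patterns the thoracic vertebrae and the brachial spinal cord, was lower in Gel than in Sham. It ran from 9.20 to 26.6 in CuNZ@Gel areas (median 20.7), from 5.45 to 20.8 in Gel areas (median 14.6) and from 20.4 to 40.6 in Sham areas (median 27.1). In 7 of 8 Gel areas it lay below every Sham area, and the groups touched through 1 Gel area at 20.8. It exceeded background in 6 of 8 CuNZ@Gel, 3 of 8 Gel and 8 of 8 Sham areas. Specimen means were 22.1 and 19.9 in CuNZ@Gel, 11.95 and 14.1 in Gel, and 29.3 and 29.0 in Sham. The log2 change was -1.17 for Gel against Sham (SE 0.22, adjusted p = 7.94e-05), a call that held under 21 of 21 alternatives. CuNZ@Gel lay between, with -0.48 against Sham (SE 0.22, adjusted p = 0.417) and 0.69 against Gel (SE 0.22, adjusted p = 0.153), neither past the threshold although both CuNZ@Gel specimen means fell between those of the other groups.

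Prrx2, which in mice acts with Prrx1 in limb and face mesenchyme and is expressed in fetal dermis, was also lower in Gel. It ran from 6.604 to 33.3 in CuNZ@Gel areas (median 16.4), from 10.995 to 18.4 in Gel areas (median 14.3) and from 14.3 to 59.3 in Sham areas (median 29.1). The Gel and Sham ranges met at 1 Sham area of 14.3, in Segment 2 of specimen 2, and every other Sham area was at 20.7 or higher. Prrx2 exceeded background in 5 of 8 CuNZ@Gel, 3 of 8 Gel and 7 of 8 Sham areas, so its Gel level lay near background and the size of the change depends on it. Specimen means were 20.4 and 14.7 in CuNZ@Gel, 13.2 and 15.2 in Gel, and 27.6 and 32.3 in Sham. The log2 change was -0.94 for Gel against Sham (SE 0.23, adjusted p = 0.00454) and -0.74 for CuNZ@Gel against Sham (SE 0.23, adjusted p = 0.0827), and the difference between the gels was 0.20 (SE 0.23, adjusted p = 0.982). The Gel call was lost under 7 of 21 alternatives, among them the omission of Gel specimen 1, of Sham specimen 1 or of Sham specimen 2 (adjusted p up to 0.242 over all 21). In CuNZ@Gel against Sham, Prrx2 was called lower under 5 of 21 alternatives: linear means, the 24 areas as samples, Segment 1 areas alone, and the omission of either Gel specimen.

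Hoxb5, a gene of the neck and upper trunk, was the weakest of the treatment calls. It ran from 3.07 to 17.9 in CuNZ@Gel areas (median 12.47), from 9.43 to 16.5 in Gel areas (median 14.03) and from 2.80 to 15.4 in Sham areas (median 6.54), and 3 of 8 Gel areas lay above every Sham area. It exceeded background in 3 of 8 CuNZ@Gel, 3 of 8 Gel and 1 of 8 Sham areas. Specimen means were 9.76 and 12.8 in CuNZ@Gel, 12.7 and 14.3 in Gel, and 7.58 and 7.61 in Sham. The log2 change was 0.92 for Gel against Sham (SE 0.27, adjusted p = 0.0394) and 0.54 for CuNZ@Gel against Sham (SE 0.27, adjusted p = 0.462). The Gel call was lost under 13 of 21 alternatives, among them edgeR (adjusted p = 0.474), DESeq2 (adjusted p = 0.787) and the omission of any 1 Gel or Sham specimen or of CuNZ@Gel specimen 2.

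**Figure D3:**
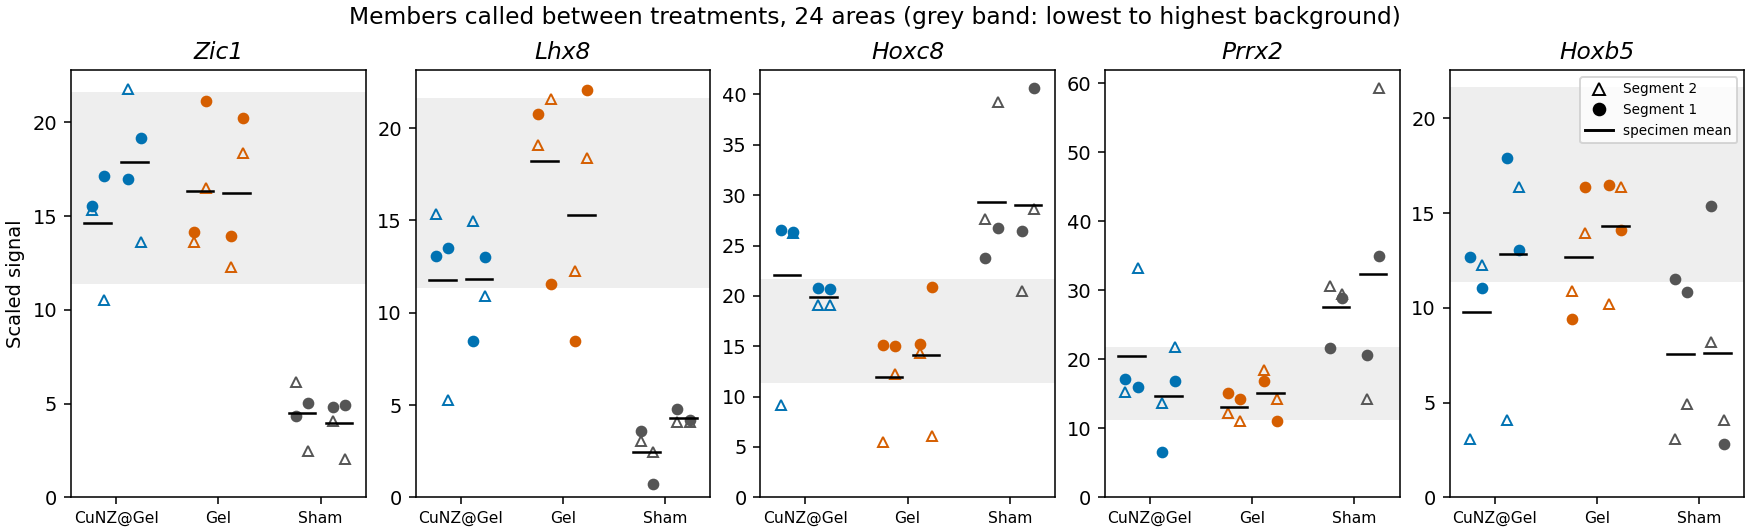
Scaled signal of the 5 members called between treatments, 1 panel per gene, with triangles for Segment 2 areas, circles for Segment 1 areas, a bar for each specimen's mean of 4 areas and a grey band from the lowest to the highest background. Zic1 and Lhx8 had no Sham area as high as any gel-treated area, while Hoxc8 and Prrx2 were lowest in Gel and highest in Sham by the mean of the 2 specimens.

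The targets most like Hoxc8 over the 24 areas were Tubb3, a tubulin of neurons (r = 0.872), Ergic3 (0.856), Serpinf1, which encodes pigment epithelium-derived factor (0.849), H13 (0.846) and Hs6st1, a heparan sulfate sulfotransferase (0.843). For Prrx2 they were Rad23b (0.845), Cetn2 (0.787), Sfrp4, a secreted Wnt-binding protein (0.773), Zfp469 (0.756) and Lgals1, a galectin (0.749). For Hoxb5 they were Slc2a3, a glucose transporter (0.828), Zfp36, an RNA-binding protein that destabilises messenger RNA (0.801), She (0.777), Mbip (0.766) and Cox4i2 (0.753).

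Fibroblast markers moved with some of these members. Their summed level ran from 7524 to 12809 in CuNZ@Gel areas, from 2006 to 11561 in Gel areas and from 10880 to 32837 in Sham areas, and 3 of the 12 (Lum, Fap and Mfap5) were called lower in Gel than in Sham. Pdgfrb, Dcn, Dpt and Fbln1 were not above background. The list's median change was -1.18 for Gel against Sham and -0.42 for CuNZ@Gel against Sham. Lum averaged 1221 in CuNZ@Gel, 1015 in Gel and 2132 in Sham, and Col1a1 averaged 267, 111 and 390, so the sum largely followed other listed genes. Over the 24 areas the log2 value of the sum correlated with Hoxc8 at r = 0.724, with Prrx2 at 0.568, with Zic1 at -0.52 and with Lhx8 at -0.61. With Prrx1 it correlated at 0.103. Smooth and skeletal muscle markers summed to 380 to 688 in CuNZ@Gel areas, 72.2 to 272 in Gel areas and 538 to 991 in Sham areas, with Myh11, Des and Myod1 among the 6 of 10 that were not above background. Within that sum Acta2 averaged 391 in CuNZ@Gel, 72.7 in Gel and 582 in Sham, and Tagln averaged 46.3, 8.7 and 74.7. The sum thus largely followed Acta2 and does not measure muscle cells as such. The markers of Schwann cells, neurons and melanocytes summed to 76.3 to 125 in CuNZ@Gel areas, 60.0 to 117 in Gel areas and 138 to 174 in Sham areas, and 7 of the 10 were not above background, Sox10 included. Within that sum Ncam1 averaged 21.6 in CuNZ@Gel, 17.4 in Gel and 69.2 in Sham, and Tubb3 averaged 21.0, 8.1 and 30.6. The median change of the 10 markers was 0.12 for Gel against Sham and -0.02 for CuNZ@Gel against Sham, so the list did not fall as a whole. The log2 value of the sum correlated with Hoxc8 at r = 0.740, with Zic1 at -0.79 and with Lhx8 at -0.86. For the muscle sum these values were 0.742, -0.61 and -0.72 in the same order. Endothelial and pericyte markers, of which 7 of 10 were not above background, Pecam1 and Cdh5 included, summed to 57.2 to 205 in CuNZ@Gel areas, 91.3 to 326 in Gel areas and 166 to 258 in Sham areas, with correlations of 0.554, -0.55 and -0.53. Within it Rgs5 averaged 41.2 in CuNZ@Gel, 50.8 in Gel and 147 in Sham, while the list's median change was 0.32 for Gel against Sham and -0.06 for CuNZ@Gel against Sham. The part of these cell types in the member differences was not tested.

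RefSeq's table of GRCr8 promoters matched 42 of the 67 members by symbol, and sequences are shown for the members called between treatments that it held, Lhx8 and Prrx2. With 1 gene called higher and 1 called lower, base composition cannot be linked to the direction of change. Each is the 250 bases before an annotated start, 5′ to 3′ on the gene's strand, and capitals mark matches to the homeodomain core TAAT or to the GC box GGGCGG on either strand. The first Lhx8 window (chr2:245929377-245929626, minus strand) and the second (chr2:245927479-245927728, minus strand) belong to different annotated starts, and the Prrx2 window is chr3:34530081-34530330 on the plus strand.
Lhx8, first start: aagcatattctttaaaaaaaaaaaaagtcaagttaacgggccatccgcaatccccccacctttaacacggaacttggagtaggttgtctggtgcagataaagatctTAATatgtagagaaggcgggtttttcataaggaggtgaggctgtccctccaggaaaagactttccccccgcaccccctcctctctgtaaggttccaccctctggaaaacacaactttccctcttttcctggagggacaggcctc
Lhx8, second start: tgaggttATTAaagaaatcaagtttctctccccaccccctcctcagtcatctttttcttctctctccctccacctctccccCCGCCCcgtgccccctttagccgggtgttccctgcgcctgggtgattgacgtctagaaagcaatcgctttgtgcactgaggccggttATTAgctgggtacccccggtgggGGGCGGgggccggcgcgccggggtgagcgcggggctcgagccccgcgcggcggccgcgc
Prrx2: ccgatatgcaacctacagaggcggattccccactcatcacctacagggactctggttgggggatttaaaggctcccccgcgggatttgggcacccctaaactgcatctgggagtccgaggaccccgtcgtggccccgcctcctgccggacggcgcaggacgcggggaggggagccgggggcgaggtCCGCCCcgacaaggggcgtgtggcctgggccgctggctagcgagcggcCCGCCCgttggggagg
The first Lhx8 window was 47.6% G and C with 5 CpG pairs, the second was 65.2% with 22, and the Prrx2 window was 70.0% with 23, against medians of 51.2% and 5.0 over all 33469 promoters, cut to the same 250 bases. The medians were 59.2% and 13 over 12 promoters of members above background, and 61.2% and 15 over 33 promoters of the other members. TAAT occurred 1 time in the first Lhx8 window, 2 times in the second and 0 times in Prrx2, and 57.0% of all promoters held it. GGGCGG occurred 0, 2 and 2 times in that order, and 30.5% of all promoters held it. Neither TATAAA (12.9% of all promoters) nor CCAAT (34.0%) occurred in any of the 3 windows. A match to these letters is a description and shows no binding.

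The other 15 members above background did not pass in any treatment comparison. Hoxc5 averaged 15.4 ± 0.446 in CuNZ@Gel, 12.9 ± 1.65 in Gel and 21.8 ± 2.88 in Sham (SD, n = 2 specimens each, as for the values below), a log2 change of -0.77 for Gel against Sham (adjusted p = 0.0565 by limma), and it was called under 6 of 21 alternatives: edgeR, a pseudocount of 5, targets above background alone, scaling to the median, the 24 areas as samples, and the omission of Gel specimen 2. Hoxc6 averaged 24.8 ± 6.65 in CuNZ@Gel, 23.5 ± 5.25 in Gel and 36.2 ± 7.16 in Sham, with -0.62 for Gel against Sham (limma adjusted p = 0.117), and was called with the 24 areas as samples and without Gel specimen 2. All 4 Hoxc5 and Hoxc6 changes against Sham were negative, but both comparisons share the Sham specimens. Of 5554 targets above background only 1797 had a positive change for Gel against Sham and 1672 for CuNZ@Gel against Sham. Both Gel specimen means of each gene lay below both Sham means, as did those of Hoxc4, Hoxd4 and Tbx18, which were not called either. With 2 specimens per group this separation does not set Hoxc5 and Hoxc6 apart, and its share over all targets was not counted. Hoxc4, at 19.4 ± 1.97 in CuNZ@Gel, 13.6 ± 1.76 in Gel and 16.9 ± 2.12 in Sham, and Hoxc9, at 11.02 ± 1.76, 9.44 ± 0.887 and 11.3 ± 0.335 in the same order, showed no change past the threshold.

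Of the Hoxb members, Hoxb6 averaged 16.2 ± 2.52 in CuNZ@Gel, 25.6 ± 6.39 in Gel and 18.1 ± 0.360 in Sham. Its change for CuNZ@Gel against Gel was -0.73 (SE 0.23, limma adjusted p = 0.142), and it was the one member called in that comparison when Gel specimen 1 was left out, a fit in which the lone Gel specimen is assumed to vary like the other groups. Hoxb4 averaged 15.8 ± 0.067 in CuNZ@Gel, 15.5 ± 0.863 in Gel and 13.1 ± 1.67 in Sham. Hoxb3 averaged 10.6 ± 0.358 in CuNZ@Gel, 14.8 ± 5.13 in Gel and 10.8 ± 1.71 in Sham, with its spread in Gel from a log2 gap of 0.70 between the 2 specimens.

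The Hoxd members and Hoxa7 showed no treatment change past the threshold. Hoxd8 averaged 30.9 ± 8.61 in CuNZ@Gel, 34.1 ± 1.87 in Gel and 37.1 ± 4.50 in Sham. Hoxd9 averaged 19.4 ± 1.00 in CuNZ@Gel, 21.0 ± 0.397 in Gel and 18.8 ± 1.95 in Sham, and the change was 0.20 for Gel against Sham. Hoxd4 averaged 9.55 ± 1.99 in CuNZ@Gel, 8.66 ± 0.262 in Gel and 12.1 ± 0.170 in Sham, with -0.61 for Gel against Sham (limma adjusted p = 0.31). Hoxa7 averaged 9.76 ± 2.23 in CuNZ@Gel, 10.5 ± 1.06 in Gel and 6.93 ± 0.469 in Sham.

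Of the T-box members, Tbx18, which in mice acts in somites and in hair follicle mesenchyme, averaged 11.6 ± 0.077 in CuNZ@Gel, 7.66 ± 2.66 in Gel and 15.1 ± 6.96 in Sham. Its Sham specimens lay apart, at 20.04 and 10.2, a log2 gap of 0.97, and the change of -0.84 for Gel against Sham did not pass (SE 0.27, limma adjusted p = 0.0801). It passed under 5 of 21 alternatives: scaling to the median, linear means, the 24 areas as samples, and the omission of Gel specimen 2 or of Sham specimen 2. It exceeded background in 2 of 8 CuNZ@Gel, 0 of 8 Gel and 5 of 8 Sham areas. Tbx15, which in mice shapes the dorsal skin and its pigment border, averaged 12.6 ± 0.198 in CuNZ@Gel, 9.38 ± 2.88 in Gel and 12.54 ± 0.811 in Sham. Lhx6, a factor of cortical interneurons and of tooth mesenchyme in mice, averaged 10.7 ± 2.21 in CuNZ@Gel, 11.4 ± 1.83 in Gel and 7.97 ± 0.267 in Sham. Prrx1, which marks fibroblast precursors of mouse skin and limb, averaged 183 ± 12.9 in CuNZ@Gel, 153 ± 14.4 in Gel and 148 ± 9.91 in Sham, with 0.33 for CuNZ@Gel against Sham (SE 0.18, limma adjusted p = 0.525).

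**Figure D4:**
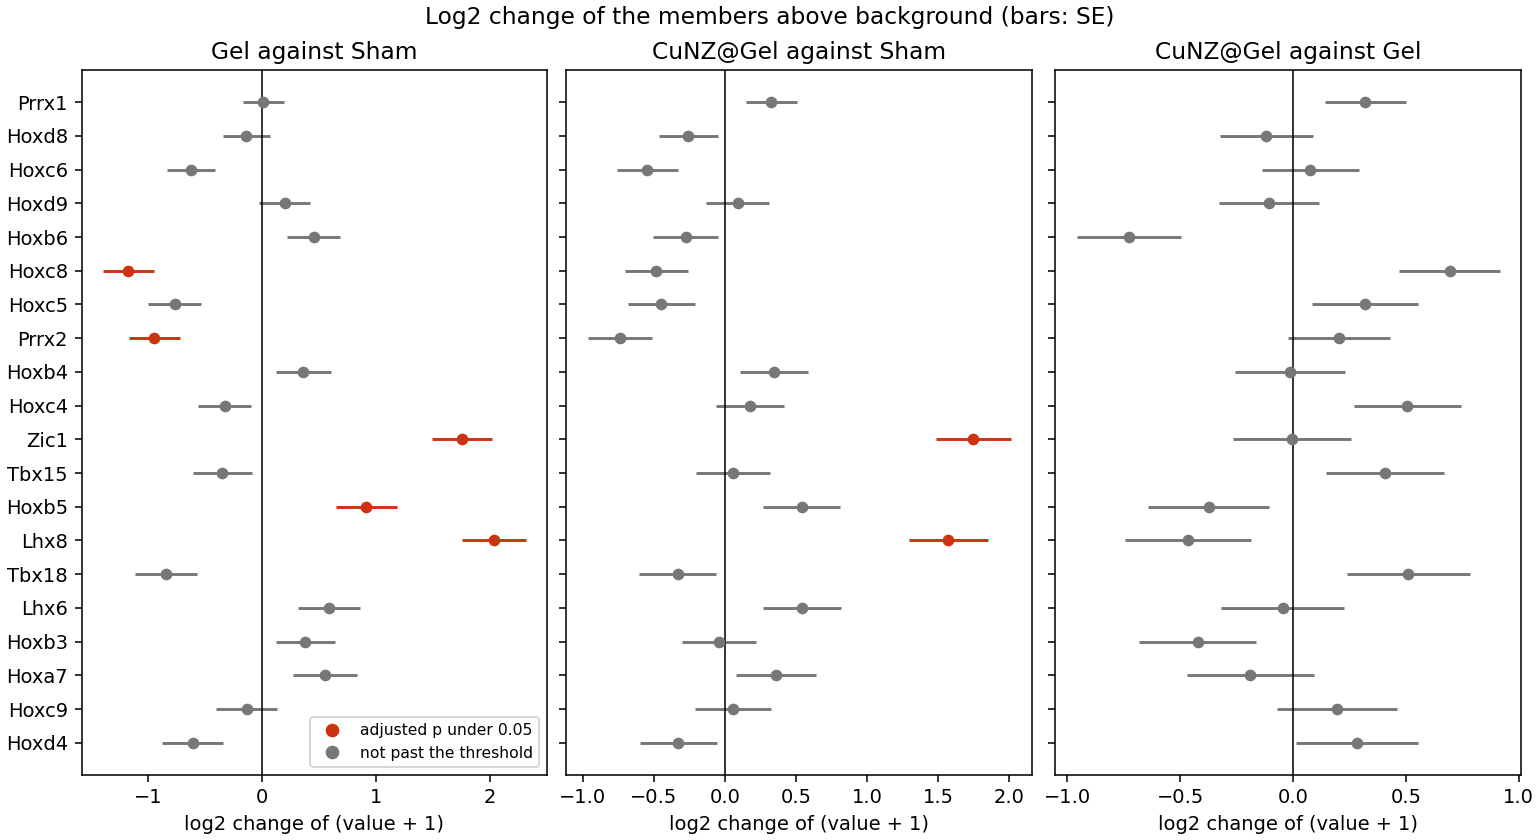
Log2 change and SE of the 20 members above background in 3 panels (Gel against Sham, CuNZ@Gel against Sham, CuNZ@Gel against Gel), in red where the adjusted p was under 0.05. The red points are Zic1, Lhx8, Hoxb5, Hoxc8 and Prrx2 in the first panel and Zic1 and Lhx8 in the second, with 0 in the third.

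Between the segments, 3 of the 67 members (4.48%) were called, all lower in Segment 2, where 1.93% of all targets were called, 0.34% higher and 1.59% lower. The median change of targets above background was -0.20. Hoxd8 ran from 14.3 to 46.6 in the 12 Segment 2 areas (median 28.1) and from 27.9 to 47.4 in the 12 Segment 1 areas (median 42.4), and was lower in Segment 2 in 5 of 6 specimens, Sham specimen 1 being the exception. Hoxb6 ran from 3.07 to 36.8 in Segment 2 (median 13.1) and from 13.7 to 33.8 in Segment 1 (median 23.8), and was lower in Segment 2 in 6 of 6 specimens. Lhx6 ran from 2.04 to 13.6 in Segment 2 (median 7.15) and from 7.94 to 19.0 in Segment 1 (median 12.7), also lower in 6 of 6.

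The log2 changes for Segment 2 against Segment 1 were -0.55 for Hoxd8 (limma adjusted p = 0.0149), -0.63 for Hoxb6 (adjusted p = 0.0333) and -0.81 for Lhx6 (adjusted p = 0.0248), with ranges of areas that overlapped for all 3. Lhx6 exceeded background in 6 Segment 1 areas and in 0 Segment 2 areas. All 3 calls were lost when every area was thinned to 86386 counts, the total of the shallowest area. The thinned change was -0.82 for Hoxd8, larger in size than with the deposited values, and -0.43 for Hoxb6 and -0.21 for Lhx6, both smaller. Hoxd8 and Lhx6 were each lost without Gel specimen 2 or without Sham specimen 2, Hoxb6 without CuNZ@Gel specimen 1 or Gel specimen 1, and Lhx6 also without CuNZ@Gel specimen 1.

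The number of members above background per area was also lower in Segment 2, at 4 to 11 (median 8) against 9 to 18 (median 13) in Segment 1. The mean difference was -5.75 members, with lower numbers in 6 of 6 specimens (exact sign-flip permutation test over specimens, two-sided p = 0.03125, the smallest it can give). With thinned counts the difference was -0.75 members, in 4 of 6 specimens (p = 0.3125 by the same exact test). For all other targets the share above background differed by -5.22 percentage points. It too was lower in 6 of 6 specimens (p = 0.03125 by the same exact test). With thinned counts that share differed by -0.94 percentage points, in 4 of 6 specimens (p = 0.1875 by the same exact test). The lower number in Segment 2 was thus not particular to the members. Numbers of members and percentage points are different units, so the sizes cannot be compared directly.

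Prrx1 was the one member called for a segment difference that depended on treatment (limma F test, adjusted p = 0.048), where 0.0507% of all targets were. Its log2 difference, Segment 2 minus Segment 1, was 0.11 and 0.22 in the CuNZ@Gel specimens, -0.58 and -0.37 in the Gel specimens, and 0.46 and 0.44 in the Sham specimens. In Gel, Segment 2 averaged 114 and 145 and Segment 1 averaged 171 and 181. In Sham, Segment 2 averaged 165 and 179 and Segment 1 averaged 118 and 132. Both Gel specimens thus lay on one side and the other 4 specimens on the other. The call was lost under 11 of 15 alternatives, among them thinned counts and the omission of either Gel or either Sham specimen.

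**Figure D5:**
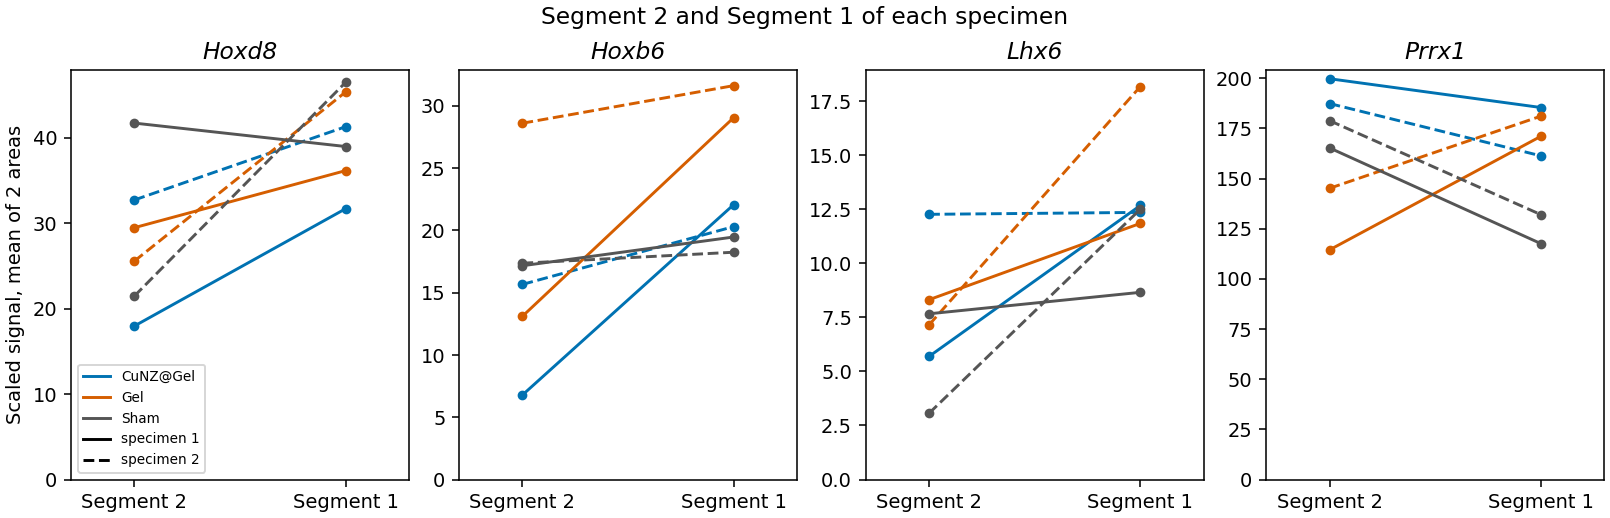
Scaled signal of Hoxd8, Hoxb6, Lhx6 and Prrx1 in Segment 2 (left) and Segment 1 (right), each point the mean of 2 areas and each line 1 specimen, coloured by treatment and dashed for specimen 2. Hoxb6 and Lhx6 lines are lower in Segment 2 in 6 of 6 specimens, and the Prrx1 lines of the 2 Gel specimens slope the opposite way to the other 4.

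Partner proteins and related factors were examined in lists chosen with earlier results of these data known. Of 9 Hox and limb cofactors of the Pbx, Meis and Pknox families, 7 were above background in at least 4 areas and 0 were called between treatments or segments. Their median change was -0.25 for Gel against Sham and 0.01 for CuNZ@Gel against Sham, beside -0.15 and -0.16 for targets above background and 0.06 and 0.04 for all targets tested. Pbx2 was above background in 24 areas and averaged 36.3 in CuNZ@Gel, 40.3 in Gel and 41.3 in Sham. Of 12 LIM partner and LIM-only genes, Ssbp3, which stabilises complexes of Ldb and LIM-homeodomain proteins, was the one called between treatments. It averaged 34.1 in CuNZ@Gel, 31.4 in Gel and 55.8 in Sham, with log2 changes of -0.73 for CuNZ@Gel against Sham (limma adjusted p = 0.0381) and -0.88 for Gel against Sham (adjusted p = 0.00242). Ldb2 was called lower in Segment 2 (-0.96, limma adjusted p = 0.000148).

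Of 47 other homeobox, forkhead and basic helix-loop-helix factors that mark body position, 7 were above background and 0 were called. En1, which marks a lineage of dorsal skin fibroblasts in mice, was above background in 24 areas and averaged 55.6 in CuNZ@Gel, 34.7 in Gel and 54.3 in Sham (-0.64 for Gel against Sham, limma adjusted p = 0.0522). Twist1, a mesenchymal regulator, averaged 57.7 in CuNZ@Gel, 55.2 in Gel and 79.6 in Sham (-0.52 for Gel against Sham, adjusted p = 0.159). Of 24 measured polycomb and trithorax genes, which silence and maintain Hox genes, 12 were above background and 0 were called between treatments, and the demethylase gene Kdm6b was called lower in Segment 2 (-0.47, adjusted p = 0.0278). Of 6 Gli and Glis genes, relatives of Zic, Gli2 was the one above background and 0 were called.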

How the data were processed

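GeoMx values of 24 areas of day 7 rat wounds were used. Each deposited file holds a scaled signal for 19962 targets and 1 negative probe. The authors' counting software, probe filter, scaling step and genome build were not given in the sources used here. Between 99.98% and 99.995% of the signal values per area equalled the area's lowest value times a whole number (tolerance 0.01 of a count), so counts were recovered. The members, lists and alternatives were chosen with earlier results of these data known. Groups, specimens, regions and segments were taken from the labels.

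Values were analysed as log2(value + 1). The 4 areas of each specimen were reduced to their mean, and 6 specimens (2 per treatment) were fitted with limma 3.58.1 (eBayes with trend and robust) in R 4.3.3, on the 19728 targets that exceeded the negative probe in 4 areas or more. The prior had 133.5 degrees of freedom and each target 3 of its own (for Zic1 an SD of 0.263 was used against 0.127 of its own, for Lhx8 0.279 against 0.311). Segments were compared on the mean of 2 areas with the specimen as a block, and an F test in that fit gave the interaction with treatment. In the segment fit the prior had 71.4 degrees of freedom, and the SD used was below the gene's own for each called member. It was 0.298 against 0.459 for Hoxb6, 0.239 against 0.324 for Hoxd8 and 0.366 against 0.446 for Lhx6. On recovered counts summed per specimen, edgeR 4.0.16 (quasi-likelihood) and DESeq2 1.42.0 called 181 and 59 targets for CuNZ@Gel against Sham, 368 and 152 for Gel against Sham, and 160 and 55 for CuNZ@Gel against Gel, where limma called 259, 478 and 186.

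Named members were all those past the threshold or above background in at least 4 areas, and for each called between treatments the 5 other targets above background with the highest correlation, of which 1 is not reported here. Alternatives covered scaling, pseudocount, filter, averaging, thinning to the shallowest area, the test, single segments, a block for the specimen number, and leaving each specimen out. The fits were tested on simulated data. Specimen numbers did not pair the treatments: the correlations of specimen differences over 5554 targets were 0.004, -0.03 and -0.03. The number of specimens limits the precision, and tags carry counting error beside it.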

Additional observations from a re-analysis of the deposited data

Results flagged for a closer look

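In 60 groups of 8 areas (20 members above background in 3 treatments), the lowest or highest area was set against the rest by the gap to its nearest neighbour. In 8 groups an area stood apart. Independent areas of equal spread would give about 1 in 20. The areas of a group share specimens and differ in segment and depth, so that rate does not hold here and the count is a description. All 8 were low, and 6 of them were Segment 2 areas, the shallower kind. In CuNZ@Gel they were Hoxa7 at 1.363 (specimen 2, region 2, Segment 2), Hoxb6 at 3.066 (specimen 1, region 1, Segment 2), Hoxc5 at 8.76 (specimen 1, region 2, Segment 2), Hoxc8 at 9.198 (specimen 1, region 1, Segment 2) and Prrx1 at 147.17 (specimen 2, region 2, Segment 1). In Gel it was Hoxc5 at 4.088 (specimen 1, region 1, Segment 2). In Sham they were Hoxc9 at 2.453 (specimen 1, region 2, Segment 2) and Lhx8 at 0.721 (specimen 1, region 2, Segment 1). The segment difference of Prrx1 depended on treatment, with an adjusted p of 0.048 by limma's F test, 2 Gel specimens against the other 4.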

How the results depend on the processing

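Alternatives were run gene by gene for the calls between treatments and between segments, and none of those changes reversed. Where leaving out a specimen left a treatment with 1, that specimen was assumed to vary like the other groups. Between Gel and Sham 5 members were called, and 3 (Hoxc8, Lhx8 and Zic1) without trend and robust settings, with thinned counts, by DESeq2 and in Segment 2 areas alone, and 8 with the 24 areas as samples. Leaving out 1 specimen gave 3 to 7. Between CuNZ@Gel and Sham 2 were called, and 1 (Zic1) with thinned counts and in Segment 2 areas alone, with 2 to 3 when a specimen was left out. Between CuNZ@Gel and Gel 0 were called, and 0 to 1 when a specimen was left out (Hoxb6 without Gel specimen 1). With the specimen number as a replicate block the counts were 5, 2 and 0, so the block changed no call. Between segments 3 were called, 1 after quantile normalization (Lhx6), 7 after scaling to the median, 0 without trend and robust settings, 0 with thinned counts, and 1 to 3 when a specimen was left out. The Prrx1 interaction, 1 call, became 0 with a pseudocount of 5, with targets above background alone, after quantile normalization, after scaling to the median, without trend and robust settings, with linear means and with thinned counts, and was 0 to 1 when a specimen was left out. Members above background numbered 20, and 13 at a higher percentile of the receptor targets, 12 with at least 8 areas, 13 with thinned counts, 30 at the 95th percentile, 26 with at least 1 area and 17 to 19 when a specimen was left out. The cause of these moves was not tested, other than fewer samples where specimens or segments were left out. The Sham levels of Zic1 and Lhx8 lay below background, which limits how exactly their changes are known.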
